A study of Hapsidospora chrysogena with 9 samples.

Results

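Mycelial transcript levels of Hapsidospora chrysogena, the filamentous fungus better known as Acremonium chrysogenum, were compared between a strain that overexpresses the Myb gene AcmybA and a strain in which AcmybA was knocked out. The comparison took the 6 libraries of these strains among the 9 of the series, by their genotype labels, and left out the 3 wild-type libraries. Each strain was sampled at 48, 72 and 96 h of culture in LPE medium, with 1 library per strain and time, and the libraries were paired by time. The series title names AcmybA as a repressor of conidiation and of cephalosporin production. The promoter that drives the overexpression, the way the gene was removed, and whether either strain is a single clone are stated in none of the labels.

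Myb proteins are DNA-binding transcription factors built on helix-turn-helix repeats. In filamentous fungi some of them act in asexual sporulation, as FlbD does in Aspergillus nidulans, where it belongs to the group of regulators upstream of conidiophore formation. Conidia are asexual spores, and cephalosporin C is the beta-lactam antibiotic for which this fungus is grown in industry. The deposited table names genes by protein identifiers that are not paired with symbols or descriptions, so levels are given by identifier and by group, no gene is given a role, and AcmybA itself could not be checked in the strains. In whole mycelium, a higher level per cell and a larger share of cells that make a transcript cannot be told apart.

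The values are FPKM, a level per transcript length and per library size. They summed to between 852915 and 1124540 per library, with medians between 38.0 and 41.5. Of 8899 genes, 8374 stood at 1 FPKM or more in at least 3 of the 6 libraries and were tested, and 135 were at 0 in all 6. Read depth is not stated. For genes under 2 FPKM, the value of 1 read relative to wild type at 96 h was most often 1.21 and 1.12 in the knockout at 72 and 96 h, and 0.566 and 0.418 in overexpression at 48 and 72 h. Smaller steps mean more reads, so by this rough guide these overexpression libraries were deeper than the knockout libraries at 72 and 96 h. The guide is loose: at 48 h the next most frequent ratio was nearly as frequent in overexpression (20 genes at 0.283, against 24), and in the knockout 0.418 and 0.835 had 18 genes each. No single ratio stood out for overexpression at 96 h. Differences are overexpression minus knockout on the log2(FPKM + 1) scale, which understates the change of low genes. The libraries of a strain are different times and not repeated cultures, so a p-value measures how steadily the strains differed over 48, 72 and 96 h.

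The first question was which transcripts differed at all times together between the strains labelled as overexpressing and lacking AcmybA. In overexpression 153 genes were higher and 258 were lower than in the knockout by limma's moderated test with a Benjamini-Hochberg adjusted p under 0.05, which is 1.83% and 3.08% of the genes tested (4.91% in all). The lower genes had a median log2 difference of -2.30 and ranged from -9.25 to -1.04, and 160 of them differed by a log2 of at least 2. The higher genes had a median of 1.99, from 1.04 to 8.13, and 76 differed by at least 2. The value of 8.13 belongs to KFH44747.1, listed at 0 in all 3 knockout libraries, so its size depends on the 1 FPKM added before the log. Over all genes tested the median difference was 0.04 and the median size of a difference was 0.32. Unadjusted p-values under 0.05 were reached by 865 higher and 929 lower genes. Without the knockout or the overexpression library at 72 h the higher genes numbered 95 and 97, and with each library scaled to the same FPKM total the lower genes numbered 170. With no time term there were 74 higher and 117 lower genes, with all 9 libraries in the fit 306 and 468, and 174 of the 411 were called whichever library was left out.

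**Figure D1:**
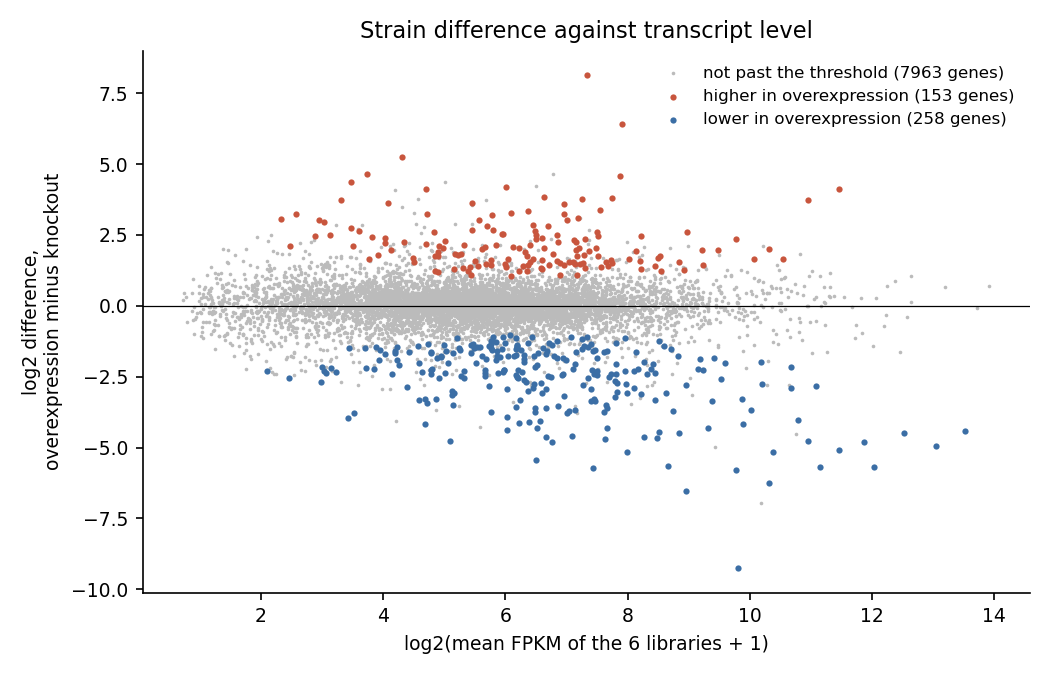
Each point is 1 of the 8374 genes tested, placed by the log2 of its mean FPKM plus 1 over the 6 libraries (x axis) and by its log2 difference, overexpression minus knockout (y axis). The points of the 258 lower genes (blue) reach further from 0 and to higher levels than those of the 153 higher genes (red).

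The lower genes included the most abundant knockout transcript at each time. These were KFH42067.1 at 48 h, with 3.38% of the summed FPKM, and KFH43806.1 at 72 and 96 h, with 2.50% and 3.08%. All lower genes together held 10.4%, 16.3% and 19.9% of the knockout's summed FPKM at 48, 72 and 96 h. In overexpression they held 0.887%, 2.58% and 2.11%. The higher genes held 3.41%, 4.99% and 5.36% of overexpression and between 0.871% and 0.988% of the knockout. These genes were chosen on the same libraries, so the shares describe size and add no test. In 4 equal groups by mean level, 1.24%, 1.91%, 3.39% and 5.78% of genes were lower from the lowest to the highest group, and 1.05%, 1.24%, 1.96% and 3.06% were higher. The median standard error of a difference was 0.34 in the lowest group and between 0.22 and 0.25 in the others. Of the 100 genes with the highest mean, all at 1236 FPKM or more, 14 were lower and 4 were higher.

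The strains shared many of their most abundant transcripts. Of the 100 most abundant genes of each strain, 59 were shared at 48 h, 58 at 72 h and 49 at 96 h. At 96 h, 44 of the knockout's 100 were at least 4-fold lower in overexpression, against 24 at 72 h and 15 at 48 h. In the other direction, 10, 7 and 9 of the 100 most abundant genes of overexpression were at least 4-fold higher there than in the knockout at 48, 72 and 96 h. Of all genes tested, 4.43%, 2.7% and 3.62% were at least 4-fold lower at 48, 72 and 96 h, and 1.73%, 3.12% and 2.84% higher. Each set of 100 was chosen for high levels in a library that the fold also uses. That choice favours the direction counted, so no test is read from these counts.

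KFH43806.1 had the largest difference in mean level. Knockout levels were 7683, 25697 and 32888 FPKM at 48, 72 and 96 h, which made it the most abundant knockout transcript at 72 and 96 h, with 3.08% of the summed FPKM at 96 h. In overexpression it stood at 181, 2752 and 1337 FPKM. All 3 overexpression values lay below the lowest knockout value, and both strains stood higher at 72 h than at 48 h. The log2 difference was -4.41 (SE 0.59, limma adjusted p = 0.0225). It missed the threshold without overexpression at 48 h (limma adjusted p = 0.0711) and with no time term (0.106), the highest value among 17 alternatives, of which the lowest was 0.00307.

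KFH42067.1 was the most abundant transcript of the knockout at 48 h, at 34236 FPKM, with 14243 and 1212 FPKM there at 72 and 96 h. Overexpression held 516, 157 and 254 FPKM. The groups did not overlap, but the log2 difference was -6.05 and -6.49 at 48 and 72 h and -2.25 at 96 h, with a mean of -4.93 (SE 0.88, limma adjusted p = 0.0466). This call ended in 8 of 17 alternatives, where adjusted p ran up to 0.115 from a lowest value of 0.00247. Among these were the fits without the knockout at 48 h (0.111), overexpression at 48 h (0.115) or overexpression at 72 h (0.0680). Leaving out either 48 h library gave the same log2 difference of -4.37, so these fits are not separate checks.

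Among the higher genes, KFH44859.1 went in overexpression from 1546 FPKM at 48 h to 6230 and 8149 FPKM at 72 and 96 h, while the knockout held 273, 109 and 495 FPKM. The lowest overexpression value was above the highest knockout value, and the gap was widest at 72 h. Its log2 difference was 4.12 (SE 0.65, limma adjusted p = 0.0334), and it passed in 16 of 17 alternatives, missing at 0.0525 with no time term. KFH43202.1 reached 2371, 5455 and 3176 FPKM in overexpression, while the knockout held 407, 107 and 387 FPKM. Here too the strains did not overlap, with the knockout lowest and overexpression highest at 72 h. The log2 difference was 3.74 (SE 0.65, limma adjusted p = 0.0431). It missed the threshold in 6 of 17 alternatives, with adjusted p between 0.00768 and 0.0595 over the 17. Without the knockout at 48 or 72 h the values were 0.0595 and 0.0515, and without overexpression at 48 h 0.0592.

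**Figure D2:**
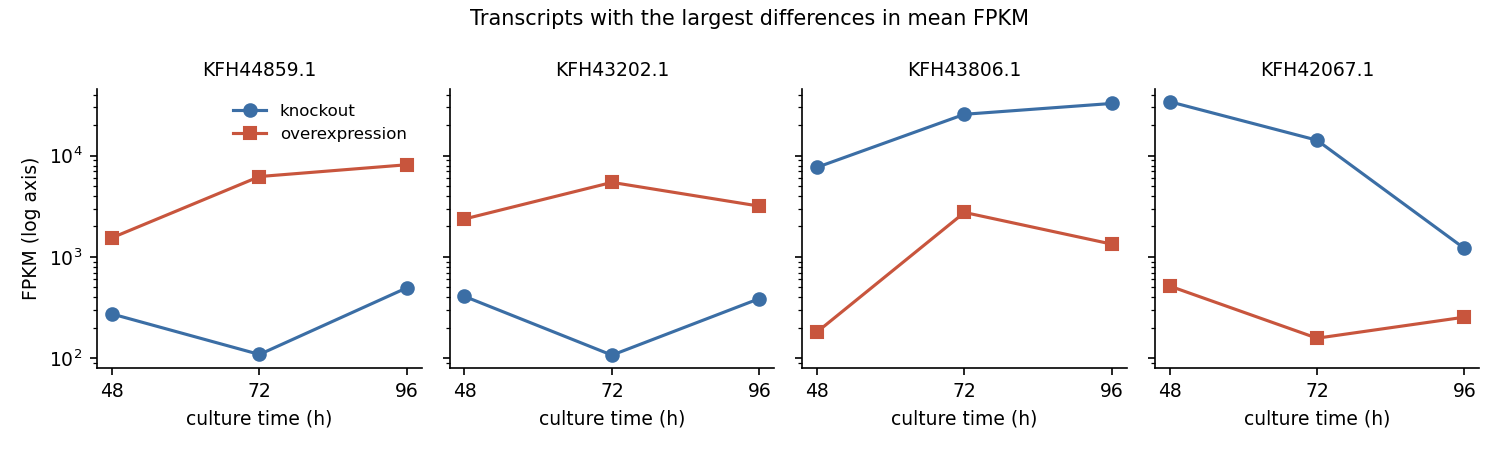
FPKM on a log axis against culture time in hours for the transcripts with the largest differences in mean FPKM among genes past the threshold, with 1 library per point (blue circles, knockout; red squares, overexpression). Overexpression lies above the knockout at all 3 times for KFH44859.1 and KFH43202.1 and below it for KFH43806.1 and KFH42067.1.

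The values of the strains were fully apart for 235 of the 258 lower genes and 135 of the 153 higher genes. Among all genes tested, 11.4% had all overexpression values below all knockout values and 11.7% had them above. The called genes were chosen for steady differences, so nothing is read from their share. Of the 153 higher genes, 12 were at 0 in at least 1 library and at 10 FPKM or more in another, as were 1 of the 258 lower genes and 134 of all genes tested (1.60%).

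Listed at 0 at all 3 times were 220 genes in the knockout and 194 in overexpression, of which 135 were at 0 in both strains. Few of the others had a level throughout the other strain: 6 genes at 0 in the knockout were at 1 FPKM or more in all overexpression libraries, and no gene showed the reverse. Overexpression held 123, 397 and 442 FPKM of KFH44747.1, which was listed at 0 in the knockout at each time. KFH43731.1 stood at 48.2, 29.8 and 35.5 FPKM in overexpression and was also listed at 0 in all 3 knockout libraries. No fold of the FPKM values is given against 0. The log2 difference of KFH44747.1 was 8.13 with 1 FPKM added, 5.83 with 5 added and 11.4 with 0.1 added. Of the 6 genes, 4 were above 10 FPKM in all overexpression libraries. The 6 genes entered the test through the strain where they are high, so no test is read from them. The count of 153 higher genes nevertheless holds 5 of them. Genes listed at 0 numbered 302, 477 and 430 in the knockout at 48, 72 and 96 h and 402, 311 and 331 in overexpression, and the part of depth in these zeros was not tested.

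Many of the genes lower in overexpression had higher levels in older cultures. A rise or fall here means at least 2-fold between the 48 and 96 h libraries of 1 strain, with no test. In the knockout 115 of the 258 (44.6%) rose, against 7.63% of all genes tested, and 21 fell (8.14%, against 10.5%). In overexpression 109 of them (42.2%) rose, against 14.9% of all genes tested, and 85 rose in both strains. The test favours genes whose strains run in parallel, so likeness of the courses is built in. The lower genes were chosen on the same libraries, and whether that choice favours a rise over a fall was not tested. With equal FPKM totals 52.4% of the lower genes rose in each strain, against 7.05% of all genes tested in the knockout and 23.9% in overexpression. After median-of-ratios rescaling 47.9% rose in the knockout, against 9.08%, and 45.3% in overexpression, against 16.9%. Of the higher genes, 26 rose (17.0%) and 25 fell (16.3%) in the knockout, and 41 rose (26.8%) and 22 fell (14.4%) in overexpression.

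The most frequent time of the highest value differed between the strains for the lower genes, with no test. No time was sampled again in either strain, so a shift in peak time cannot be told from variation between libraries. The same libraries also served to choose the genes, which are not independent replicates. In the knockout 136 of the 258 (52.7%) were highest at 96 h, where 32.2% of all genes tested were highest. In overexpression 112 (43.4%) were highest at 72 h, against 21.8% of all genes tested, and 92 (35.7%) at 96 h. Their median knockout level was 97.2, 153 and 161 FPKM over the 3 times. In overexpression it was 16.0, 34.1 and 28.1 FPKM. The higher genes had medians of 26.0, 26.5 and 24.1 FPKM in the knockout and 107, 127 and 133 FPKM in overexpression, nearly level over time. The median over all genes tested lay between 41.7 and 45.2 FPKM in the 6 libraries.

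**Figure D3:**
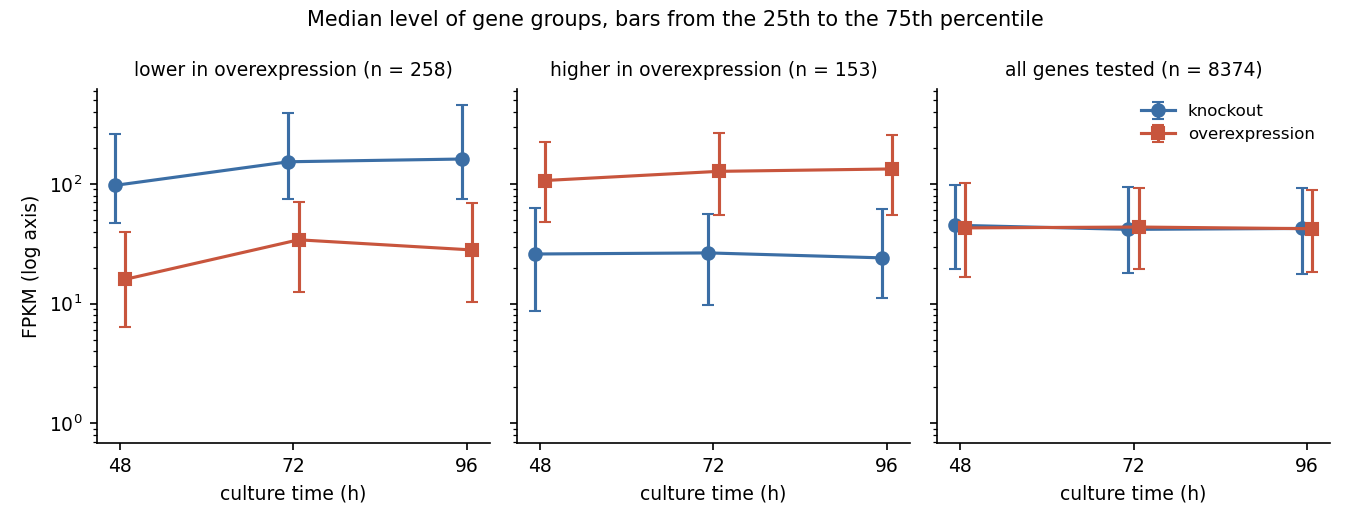
Median FPKM on a log axis against culture time in hours for the 258 lower genes, the 153 higher genes and all 8374 genes tested (blue circles, knockout; red squares, overexpression), with bars from the 25th to the 75th percentile over genes and points set slightly apart. The median of the lower genes is highest at 72 h in overexpression, at 34.1 FPKM, and at 96 h in the knockout, at 161 FPKM, with no test.

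Genes with large differences throughout leaned to the same side. At least 4-fold differences at 48, 72 and 96 h were found for 100 genes lower in overexpression (1.19% of those tested) and 48 higher (0.573%). If 48 h is not required the numbers become 148 and 117, and if 72 h is not required 153 and 59. The higher genes numbered 25 with a pseudocount of 5 and 29 among genes at 1 FPKM or more in all 6 libraries, and the lower genes 81 and 87. All 100 lower genes and 43 of the 48 higher genes were also called by the strain test, as were 4.91% of all genes tested. Both rules use the same 6 libraries, so this overlap adds no test. The lower set held 7.58%, 12.3% and 15.7% of the knockout's summed FPKM at 48, 72 and 96 h. In overexpression it held 0.229%, 1.32% and 0.887%. This set includes KFH42067.1, with 3.38% of the knockout at 48 h, and KFH43806.1, with 2.50% and 3.08% at 72 and 96 h. The gap was narrowest at 72 h for 57 of the 100 lower genes, and at 48 h for 27 of the 48 higher genes. In the knockout 63 of the 100 rose at least 2-fold between 48 and 96 h, against 7.63% of all genes tested. In overexpression 51 rose, against 14.9%.

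At a difference of at least 8-fold at all times, 36 genes were lower and 10 were higher. The 36 had knockout medians of 291, 641 and 809 FPKM over the 3 times, within ranges of 12.5 to 7683, 20.3 to 25697 and 24.7 to 32888. In overexpression their medians were 6.86, 32.0 and 17.0 FPKM. Of the 36, 28 rose at least 2-fold between 48 and 96 h in the knockout and 24 in overexpression. The 10 higher genes had medians of 128, 151 and 112 FPKM in overexpression and 4.34, 2.10 and 2.86 FPKM in the knockout. There 4, 5 and 5 of them were listed at 0, where the fold depends on the 1 FPKM added. None of the 10 rose at least 2-fold in the knockout, and 2 did in overexpression. Of all genes tested, 7.63% rose in the knockout and 14.9% in overexpression. Both sets were chosen for large differences on the same 6 libraries, so no test is read from these counts.

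The second question was how the strains differed at each time. Single times have 1 library a strain, so these are sizes with no test. At 48 h lower genes prevailed, with 371 at least 4-fold lower (4.43%) and 145 higher (1.73%). At 72 h the numbers were 226 lower (2.7%) and 261 higher (3.12%), and at 96 h 303 lower (3.62%) and 238 higher (2.84%). At 8-fold the lower and higher genes numbered 166 and 40 at 48 h, 79 and 94 at 72 h, and 145 and 81 at 96 h. Across genes the strains correlated at r = 0.861, 0.855 and 0.838 at the 3 times, and the median size of a difference was 0.45, 0.43 and 0.45. Overexpression had 402 genes listed at 0 at 48 h and the knockout 302, and among the 7909 genes at 1 FPKM or more in all 6 libraries the 48 h numbers were 287 lower and 107 higher. After quantile normalisation the 48 h numbers were 303 lower and 163 higher. The order at 72 h turned to 262 lower and 242 higher after quantile normalisation, to 174 and 155 among the genes at 1 FPKM or more in all 6 libraries, and to 160 and 155 with a pseudocount of 5. That at 96 h turned with equal FPKM totals, to 243 lower and 337 higher, a scaling that moves the median difference at 96 h from 0.01 to 0.32.

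**Figure D4:**
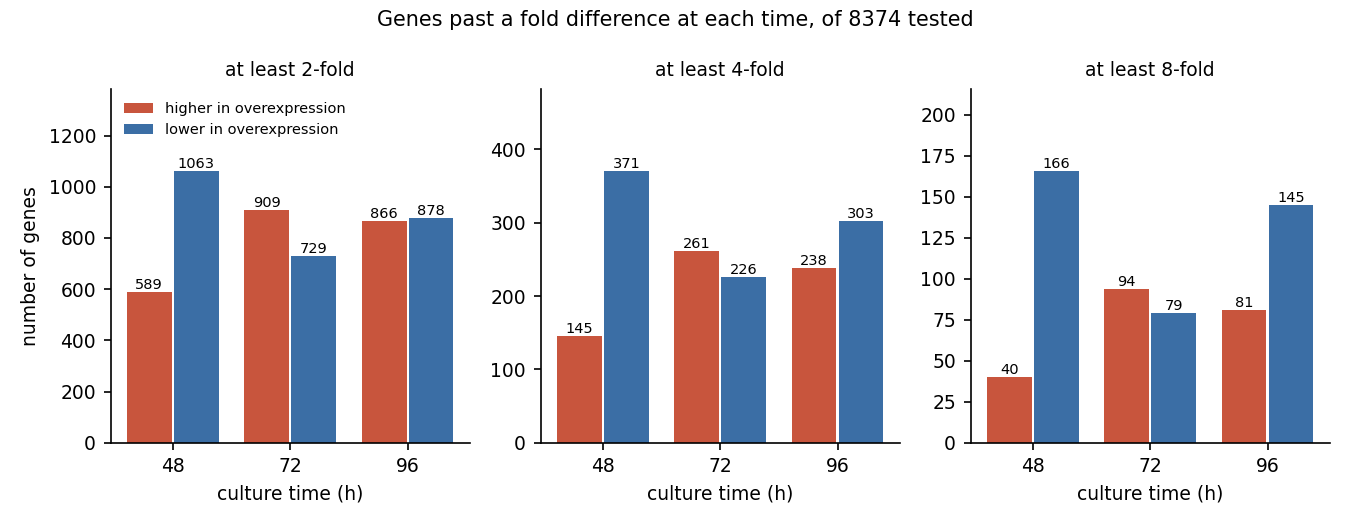
Number of genes at least 2-fold, 4-fold or 8-fold apart at 48, 72 and 96 h, of 8374 tested (red bars, higher in overexpression; blue bars, lower). At 48 h the blue bar is the taller at each fold, with 1063 against 589, 371 against 145 and 166 against 40 genes.

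The times share no library, so genes chosen at 1 time were read at the others. Genes at least 4-fold lower in overexpression at 72 h were also lower at 48 h in 213 of 226 cases (94.2%, against 48.1% of all genes tested) and at 96 h in 208 (92.0%, against 49.2%). Their median log2 difference was -2.65 at both other times. Genes chosen as lower at 96 h were lower at 48 h in 89.4% and at 72 h in 90.1% of 303 cases. Those chosen at 48 h were lower at 72 h in 83.6% and at 96 h in 80.1% of 371 cases, with medians of -1.45 and -1.56. Of the 371, 22 were at least 4-fold higher in overexpression at 72 h.

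The higher genes were read in the same way. Of the 261 at least 4-fold higher at 72 h, 220 (84.3%) were higher at 96 h, with a median of 1.75, and 177 (67.8%) at 48 h, with a median of 0.73, where 51.8% of all genes tested were higher. Of the 238 chosen at 96 h, 214 (89.9%) were higher at 72 h and 165 (69.3%) at 48 h, with medians of 1.98 and 0.72. The 145 genes chosen as higher at 48 h were higher at 72 h in 91.0% and at 96 h in 81.4% of cases. Among genes at 1 FPKM or more in all 6 libraries, 75.5% of the higher and 96.0% of the lower genes chosen at 72 h kept their side at 48 h. The contrast between the directions was not tested. Over all genes tested the differences correlated at r = 0.650 between 72 and 96 h, 0.445 between 48 and 72 h and 0.442 between 48 and 96 h, where genes are not independent replicates.

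**Figure D5:**
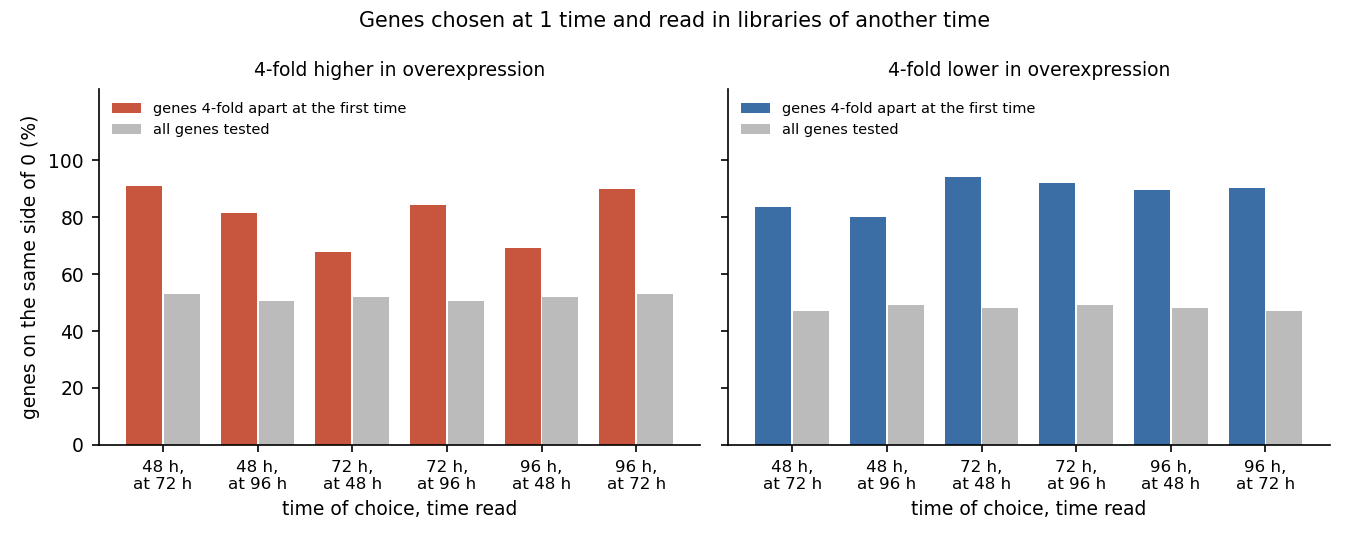
Percentage of genes on the same side of 0 at a second time (y axis) for genes at least 4-fold higher (left, red) or lower (right, blue) in overexpression at a first time, beside all genes tested (grey). The x axis gives the time of choice and the time read; higher genes chosen at 72 or 96 h reach 67.8% and 69.3% at 48 h, and lower genes chosen there reach 94.2% and 89.4%.

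The third question was whether the difference between the strains changed steadily from 48 to 96 h. No gene passed limma's test of a linear change per 24 h, where the smallest adjusted p was 0.0681, shared by 5 genes. Unadjusted p-values under 0.05 were reached by 900 genes (10.7%), of which 495 moved up and 405 down. The fit leaves 1 residual degree of freedom. With a prior that allows for outlying genes 3 genes passed, all upward, and with no filter on low values 1 did. At least 2-fold reversals between 48 and 96 h were seen for 80 genes from lower to higher in overexpression and for 33 from higher to lower. Of these, 47 and 25 were at 1 FPKM or more in all 6 libraries.

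KFH44015.1 had the largest downward change among genes at 1 FPKM or more in all 6 libraries. The knockout went from 2.67 through 11.4 to 91.8 FPKM, and overexpression from 35.6 through 20.8 to 1.02 FPKM. The strains thus crossed, from a log2 difference of 3.32 to one of -5.52, a change of -4.42 per 24 h (SE 0.55, limma adjusted p = 0.118). Overexpression held 798, 239 and 59.8 FPKM of KFH45910.1, against 28.3, 116 and 117 FPKM in the knockout. Its difference changed by -2.87 per 24 h (SE 0.31, limma adjusted p = 0.0943).

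KFH43121.1 had the largest upward change among genes at 1 FPKM or more in all 6 libraries. It stood at 28.9, 7.88 and 3.38 FPKM in the knockout and 3.68, 39.2 and 36.6 FPKM in overexpression. Its difference moved by 2.89 per 24 h (SE 0.56, limma adjusted p = 0.204), from below the knockout at 48 h to above it at 72 and 96 h. KFH47344.1 stood at 170, 365 and 39.9 FPKM in the knockout and 6.16, 82.4 and 73.8 FPKM in overexpression. Its change was 2.72 per 24 h (SE 0.24, limma adjusted p = 0.0681), and it passed in 1 of 10 alternatives, at 0.0395 with the prior that allows for outlying genes.

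Other genes departed at a single time, with no test. KFH45352.1 stood at 3.20, 58.1 and 44.5 FPKM in the knockout and at 9.94, 4.01 and 6.28 FPKM in overexpression, so it was higher in overexpression at 48 h and lower afterwards. KFH48011.1 was lower in overexpression at 72 h, at 1.42 against 17.2 FPKM, while at 48 and 96 h it stood at 2.50 and 11.6 FPKM there and at 2.26 and 7.64 FPKM in the knockout. KFH48240.1 was lower in overexpression throughout but least so at 72 h. It stood at 266, 604 and 3053 FPKM in the knockout and at 1.06, 167 and 43.2 FPKM in overexpression (strain difference -4.99, limma adjusted p = 0.0591; 0.000187 to 0.184 over 17 alternatives, of which 6 passed).

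The 8899 identifiers carry consecutive numbers without a gap, which allowed a count of neighbouring numbers that differed together. Whether neighbouring numbers are neighbouring genes is not stated in the table. The next number was also lower for 10 of the 258 lower genes (3.88%), where 2.90% of all listed genes were lower. It was also higher for 4 of the 153 higher genes (2.61%), against 1.72%. Both shares were close to the background, slightly above it, and were not tested. For genes at least 2-fold lower at every time, the next number was also lower for 17 of 318 (5.35%, against 3.57%). For those 2-fold higher it was also higher for 6 of 172 (3.49%, against 1.93%). Among genes past the threshold, the longest run of lower genes held 3 numbers, from KFH44392.1 to KFH44394.1, and the longest runs of higher genes held 2. The length of 3 moved in 12 of 17 alternatives, to 2, or to 4 with all 9 libraries in the fit. KFH44392.1 stood at 139, 861 and 484 FPKM in the knockout and 9.85, 11.4 and 8.39 FPKM in overexpression (log2 difference -5.17, SE 0.49, limma adjusted p = 0.0123). KFH44393.1, in the middle of the run, had a log2 difference of -1.08 (SE 0.20, limma adjusted p = 0.0490) and missed the threshold in 11 of 17 alternatives, the 6 that left out 1 library among them (0.0758 to 0.227).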

How the data were processed

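RNA was extracted with Trizol from frozen mycelium and polyadenylated RNA was sequenced on Illumina libraries, per the labels. The submitters' processing notes name CASAVA and HISAT2 2.0.5; the build, the annotation and how reads were counted were not given in the sources used here. FPKM values make up the deposited table, a unit worked out from the values because its header names libraries only; all columns matched a library title. Genes at 1 or more in at least 3 of the 6 libraries were taken as log2(FPKM + 1). Strain and time, each as a factor, were fitted with limma 3.58.1 in R 4.3.3 (2 residual degrees of freedom, 3.30 from the prior, intensity trend), with a strain slope per 24 h added for change with time. P-values were two-sided and adjusted by Benjamini-Hochberg over 8374 genes, with a threshold of 0.05. The fits were also run on simulated data with independent noise of the fitted variances. Such data cannot show the error rate for 1 library per strain and time with genes that vary together.

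Pairing follows the labelled culture times. Deviations from strain means correlated across genes between the strains at r = 0.364, -0.0536 and 0.345 at 48, 72 and 96 h. Those of overexpression at 72 h correlated more with those of the knockout at 96 h (r = 0.228), so these values do not single out the 72 h pair. Genes were named by rule, at most 2 a direction for each comparison: largest difference in mean FPKM past the threshold and above 0 in all libraries; largest change per 24 h; highest mean of those at 0 in 1 strain; and, 1 a direction, largest departure at a single time and longest identifier run. The rules for change per 24 h and for single times took only genes at 1 FPKM or more in all 6 libraries. The 7 gene lists with 45 symbols matched 0 identifiers and gave no result. The libraries, lists and rules were chosen with earlier results of these data known. Alternatives covered pseudocount, filter, scaling, prior, time term, wild type in the fit and leaving out each library.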

Additional observations from a re-analysis of the deposited data

How the results depend on the processing

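The 153 higher and 258 lower genes numbered 306 and 468 when all 9 libraries entered the fit, which called 394 of the 411 genes again. The fit without time as the replicate block gave 74 and 117, and equal FPKM totals gave 170 lower genes. Leaving out 1 library gave 95 to 182 higher genes (95 and 97 without the knockout and the overexpression library at 72 h) and 221 to 246 lower genes; the time of that library then adds nothing to the strain difference, so the fit rests on the other times. Leaving out either strain's library of a time therefore gave the same strain differences, so such fits are not separate checks among the alternatives. Whichever library was left out, 174 of the 411 genes were called, 55 higher and 119 lower. Lower genes made up 55.0% to 71.7% of the calls in these fits and 58.6% to 64.0% in the others. Steady change with time was called for 1 gene with no filter on low values and 3 with a robust prior, all upward, and leaving out a library allows no such fit. Some alternatives for the 4-fold counts were chosen after seeing the data. With a pseudocount of 5, 242 genes were lower at 48 h, 155 and 126 higher at 72 and 96 h, and 25 higher at all times. Among genes at 1 or more in all 6 libraries, 155 were higher at 72 h and 29 at all times. Requiring 2 of the 3 times gave 59 to 117 higher and 141 to 153 lower genes. The cause of these shifts was not tested, except that rules with fewer times are looser and stricter filters hold fewer genes. Of the 10 strain differences and 4 changes per 24 h of named genes that were recomputed, none changed sign. These genes were chosen on the same libraries, mostly for large differences, so this adds no test. KFH44747.1 and KFH43731.1, listed at 0 in the knockout throughout, could not change sign. Read depth is not stated, which limits low genes and genes listed at 0.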

Other observations

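Wild type was outside the comparison, and its values for the genes with the largest differences in mean FPKM and for those listed at 0 are given without a test. Of the 6 genes listed at 0 in the knockout throughout, 5 were also listed at 0 in wild type at 48 h. At 72 and 96 h wild type held 233 and 411 FPKM of KFH44747.1, and 0 and 80.8 FPKM of KFH43731.1. Wild-type KFH43806.1 ran at 237, 3642 and 3439 FPKM over the 3 times, nearer to overexpression than to the knockout at each. KFH42067.1 ran the other way, at 93100, 18436 and 7115 FPKM, above the knockout and far above overexpression at all 3 times. KFH44859.1 stood at 1398, 3287 and 1629 FPKM there, nearer to overexpression than to the knockout at 48 and 72 h and nearer to the knockout at 96 h. KFH43202.1 stood at 580, 368 and 454 FPKM, nearer to the knockout at all 3 times.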
